A study of Mus musculus with 12 samples.

Results

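Erg, Fli1, Etv6, Ets1, Ets2, Elf1 and Gabpa are 7 genes of the ETS family of transcription factors with known roles in blood stem cells. Their accessible chromatin was taken as every region of the 12 ATAC-seq summit lists that lay within the annotated body of a member gene or within 10 kb of either end. This gave 86 regions out of 71006 in all, namely 24 at Etv6, 18 at Fli1, 15 at Elf1, 14 at Erg, 10 at Ets1, 3 at Gabpa and 2 at Ets2. ATAC-seq uses a transposase that inserts sequencing adapters into open DNA, and a summit is the highest point of a peak of such insertions. The cells were hematopoietic stem cells (HSCs) sorted from the bone marrow of C57BL/6 mice as Lin-, cKit+, Sca1+, Flk2-, CD48- and CD150+. The 4 groups of 3 libraries were Young WT (wild type, 3 months old), Young Mlkl-/- (3 months), Aged WT (18 months) and Aged Mlkl-/- (18 months). Mlkl encodes the pseudokinase that carries out necroptosis, an inflammatory form of cell death, and the comparisons asked what age and the loss of Mlkl did to stem cell chromatin. Each library came from a pool of mice, with more young than aged animals per pool. The study used both sexes, and the sex of the animals in these pools is not stated.

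ETS factors bind DNA through a winged helix-turn-helix domain that recognises a GGAA core, and they often act together with GATA, RUNX and basic helix-loop-helix factors at enhancers of blood genes. Erg and Fli1 are close relatives and both are required in HSCs. Etv6 is mainly a repressor that adult bone marrow HSCs need. Ets1 is best known in lymphocytes, and Ets2 is a target of growth factor signalling. Elf1 acts in blood and endothelial cells. Gabpa is the DNA-binding subunit of the GA-binding protein, which regulates many housekeeping genes and is needed by HSCs. Ets2 lay 115 kb from Erg on chromosome 16, and Fli1 lay 93.4 kb from Ets1 on chromosome 9.

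Regions are named by their gene and by the distance of the highest summit from the outermost coding start in the basic annotation, with + for positions towards the gene's 3′ end. The sequences of 11 regions that the results below turn on are given first, each as the 201 bases centred on the highest summit, read on the strand of the gene from the reference genome (RefSeq, GRCm38.p6, the same build as mm10). Capitals mark matches, on either strand, to short motifs of factors known to work together in HSCs: ETS, GATA, RUNX, the E-box of basic helix-loop-helix factors, and AP-1. The ETS motif was searched as AGGAAGT and, separately, as CGGAAGT, and a stretch can match only one of these. The GATA motif was AGATAA and the RUNX motif was TGTGGTT. The E-box was searched as CAGATG and, separately, as CAGCTG, which reads the same on both strands. The AP-1 motif was TGACTCA. Sequences without capitals held none of these spellings.

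The 4 Erg regions shown were intronic, and 3 of them were called in every library while Erg +149.8 kb was called only in aged ones.
Erg +127.1 kb, chr16:95459379-95459579, minus strand: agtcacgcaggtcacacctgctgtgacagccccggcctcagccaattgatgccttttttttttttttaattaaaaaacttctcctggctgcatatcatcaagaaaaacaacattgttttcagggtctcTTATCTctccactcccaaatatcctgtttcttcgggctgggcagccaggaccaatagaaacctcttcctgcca
Erg +133.9 kb, chr16:95452565-95452765, minus strand: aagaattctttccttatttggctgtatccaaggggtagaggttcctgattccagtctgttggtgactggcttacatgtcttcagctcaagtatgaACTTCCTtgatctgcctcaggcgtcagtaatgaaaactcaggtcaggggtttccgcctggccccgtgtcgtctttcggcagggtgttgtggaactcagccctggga
Erg +147.2 kb, chr16:95439260-95439460, minus strand: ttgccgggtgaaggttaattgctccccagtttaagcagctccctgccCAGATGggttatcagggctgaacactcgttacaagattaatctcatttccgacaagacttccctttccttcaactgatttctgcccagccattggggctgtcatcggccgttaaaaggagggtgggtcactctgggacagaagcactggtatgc
Erg +149.8 kb, chr16:95436732-95436932, minus strand: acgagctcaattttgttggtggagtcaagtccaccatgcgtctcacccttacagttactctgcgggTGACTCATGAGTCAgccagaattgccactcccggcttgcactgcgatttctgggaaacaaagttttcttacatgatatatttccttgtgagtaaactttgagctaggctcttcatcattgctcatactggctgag
The regions shown from the other genes either ranked high among distal regions or differed with age in their values, and these 7 were also intronic.
Fli1 +31.6 kb, chr9:32509868-32510068, minus strand: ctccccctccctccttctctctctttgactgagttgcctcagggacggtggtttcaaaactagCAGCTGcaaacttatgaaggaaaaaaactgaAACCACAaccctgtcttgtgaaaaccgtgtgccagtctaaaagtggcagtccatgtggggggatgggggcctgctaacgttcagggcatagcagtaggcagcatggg
Etv6 +8.1 kb, chr6:134043660-134043860, plus strand: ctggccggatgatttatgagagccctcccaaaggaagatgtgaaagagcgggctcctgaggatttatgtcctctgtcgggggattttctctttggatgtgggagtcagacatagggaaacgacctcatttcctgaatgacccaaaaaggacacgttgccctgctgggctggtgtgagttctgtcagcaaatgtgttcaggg
Etv6 +80.1 kb, chr6:134115683-134115883, plus strand: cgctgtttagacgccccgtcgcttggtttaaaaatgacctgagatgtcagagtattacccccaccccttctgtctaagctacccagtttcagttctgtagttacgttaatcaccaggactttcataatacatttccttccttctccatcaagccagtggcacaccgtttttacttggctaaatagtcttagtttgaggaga
Etv6 +154.3 kb, chr6:134189866-134190066, plus strand: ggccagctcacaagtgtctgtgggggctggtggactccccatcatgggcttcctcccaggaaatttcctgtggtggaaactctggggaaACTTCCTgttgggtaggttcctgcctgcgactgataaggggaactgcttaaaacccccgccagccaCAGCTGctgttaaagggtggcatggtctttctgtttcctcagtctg
Ets1 -23.4 kb, chr9:32672511-32672711, plus strand: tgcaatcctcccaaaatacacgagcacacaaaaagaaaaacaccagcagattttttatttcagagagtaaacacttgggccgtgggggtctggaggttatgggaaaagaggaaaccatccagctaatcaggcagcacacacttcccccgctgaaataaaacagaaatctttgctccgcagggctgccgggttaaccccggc
Ets1 +10.3 kb, chr9:32706211-32706411, plus strand: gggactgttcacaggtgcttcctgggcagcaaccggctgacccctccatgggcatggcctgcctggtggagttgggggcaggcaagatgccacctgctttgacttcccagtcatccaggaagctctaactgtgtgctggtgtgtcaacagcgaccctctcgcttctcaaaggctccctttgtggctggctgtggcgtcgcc
Elf1 +49.1 kb, chr14:79530210-79530410, plus strand: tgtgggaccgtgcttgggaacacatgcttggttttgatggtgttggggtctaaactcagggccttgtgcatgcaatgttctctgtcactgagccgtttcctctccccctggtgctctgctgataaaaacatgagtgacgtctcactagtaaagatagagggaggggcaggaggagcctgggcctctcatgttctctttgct

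The Erg +133.9 kb sequence held an ETS match with its centre 2 bases upstream of the summit. The Etv6 +154.3 kb sequence held an ETS match 8 bases upstream of the summit and an E-box 58 bases downstream. The Fli1 +31.6 kb sequence held a RUNX match 3 bases upstream of the summit and an E-box 34 bases upstream. In Erg +149.8 kb, AP-1 matches in opposite orientation touched each other, with centres 31 and 24 bases upstream of the summit. Over all 86 regions, 20 held an ETS spelling within 100 bp of the summit (23.3%, against 18.9% of all 71006 regions), 10 held GATA (11.6% against 9.28%) and 22 held an E-box (25.6% against 26.9%). RUNX matches were found in 5 (5.81% against 10.3%) and AP-1 matches in 7 (8.14% against 8.19%). Fli1 and Etv6 held 13 of the 20 regions with an ETS match, with 6 at Fli1 and 7 at Etv6, and Ets1 held 0. The median GC content was 50.8% in the ETS-gene regions and 51.7% in all regions. These shares describe letters in the reference and do not show binding.

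The score of a summit was the authors' −log10 q-value, and summits with a score of at least 3 were counted as called. In these full lists, the libraries held between 35714 and 61495 summits, with 37465 to 47220 in Young WT and 35714 to 56368 in Young Mlkl-/- lists against 50995 to 58652 and 47032 to 61495 in the aged lists of these genotypes. Because longer lists call more regions, each list was also cut down to the 35714 summits that scored highest in it, as many as the shortest list held. The lowest score kept therefore differed by library, from 3.01 to 7.84 in young and from 5.97 to 9.02 in aged lists. A region could thus drop out of a reduced list at a score that counted as called in another. Summits at genes of the Y chromosome were present in 3 of the 6 young libraries and in 0 of the 6 aged ones. A sort label check at transcription starts gave summits in all 12 lists for Kit, Hlf, Tal1 and Meis1 among 12 HSC genes, and in 0 for Slamf1, which encodes CD150. Flt3, which encodes the sorted-against Flk2, had a summit at its start in 12 lists and Cd48 in 2. None of 5 T cell genes, 5 neutrophil genes or 5 macrophage genes had one in all 12, and 4 genes of each list had none in any list, while Ebf1 (B cell), Epor (erythroid), Kdr and Sox17 (endothelial) had one in 12. The Mlkl start had a call in each of the 6 WT and the 6 Mlkl-/- libraries, and an open start does not test the deletion.

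In the full lists, 20 of the 86 ETS-gene regions were called in all 12 libraries (23.3%, against 28.6% of all regions) and 20 in a single library (23.3% against 17.0%). The regions called in all libraries were spread over Etv6 (7), Elf1 (4), Erg (3), Ets1 (3), Ets2 (2) and Gabpa (1), and none was at Fli1. Of the 86 regions, 76 had their highest summit in an intron, 5 upstream, 3 downstream and 2 in an exon. A summit within 1 kb of a start of any gene was found for 16 of them (18.6%), against 25.9% of all regions. The Young WT libraries called 37, 38 and 31 ETS-gene regions and the Young Mlkl-/- libraries 44, 54 and 29. The Aged WT libraries called 45, 38 and 49 and the Aged Mlkl-/- libraries 55, 40 and 57. The age groups overlapped, with 29 to 54 regions in young and 38 to 57 in aged libraries, and the shortest list called the fewest and the longest list the most. After reduction to equal length the young counts were 33, 30 and 30 for WT and 32, 34 and 29 for Mlkl-/-, and the aged counts were 28, 20 and 28 for WT and 31, 30 and 26 for Mlkl-/-. The direction therefore turned with the list length: the mean was lowest in Young WT in the full lists (35.3 ± 3.79, SD, n = 3, against 44 ± 5.57 in Aged WT) and lowest in Aged WT in the reduced lists (25.3 ± 4.62 against 31 ± 1.73 in Young WT). Over the 86 regions, 39 were called in more aged than young full lists and 17 in more young ones (45.3% and 19.8%, against 47.1% and 16.6% of all regions). In the reduced lists the counts were 14 and 20 (16.3% and 23.3%, against 23.2% and 22.0%). The plot of calls by library shows both sets of counts beside the share over all regions.

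**Figure D1:**
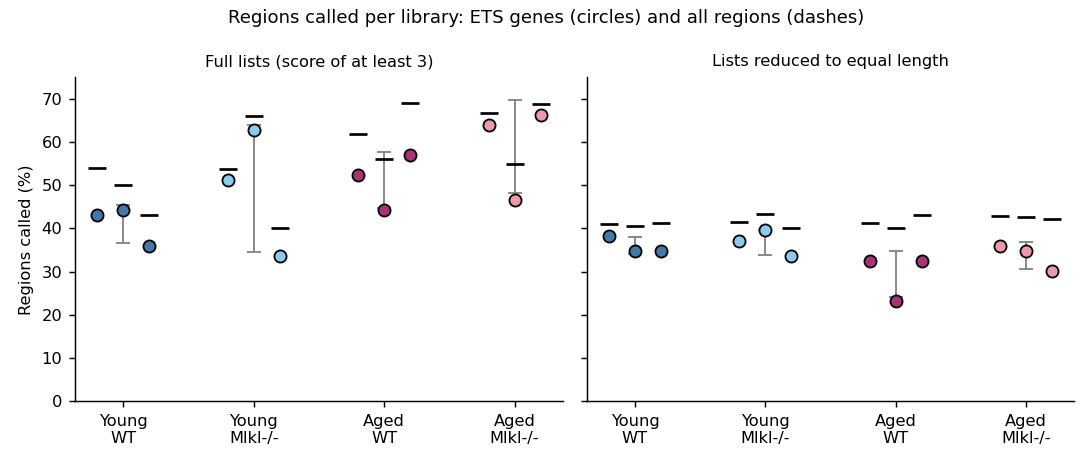
Share of regions called in each library (percent, vertical axis), for the 86 ETS-gene regions (circles, with grey bars for the SD of the group around its mean) and for all 71006 regions (black dashes), in the 4 groups of 3 libraries. In the full lists (left) the ETS-gene share ran from 33.7% to 66.3%, and in lists of equal length (right) from 23.3% to 39.5%.

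Ranks within the reduced lists were used to compare the groups. Each region was ranked in each list by its highest score, with regions not called tied at the bottom, and the rank was given as a percentile, where 100 is the strongest region of the list, and as a normal score (the value of the standard normal distribution at that percentile). For regions without a call the normal score was -0.57 to -0.52, depending on the library. Of the 86 regions, 40 were called in at least 3 reduced lists and entered the tests together with 37886 regions in all. The 40 were 15 at Etv6, 8 at Elf1, 5 at Erg, 5 at Fli1, 4 at Ets1, 2 at Ets2 and 1 at Gabpa. The other 46 were called in 0 to 2 reduced lists, 32 of them in 0, and are described only by their calls. In these bulk data, a lower rank in all cells and an open site in fewer of the cells cannot be told apart.

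The promoters of the 7 genes differed widely in rank. The Gabpa promoter region (chr16:84834452-84836146), which held the starts of Gabpa and of the divergent gene Atp5j, ranked highest, with percentiles of 92.6 to 99.6 (median 98.0) over the 12 libraries. The Ets1 promoter (chr9:32695481-32696289) ranked at 91.3 to 99.2 (median 96.1). The Etv6 promoter (chr6:134034801-134036182) ranked at 79.1 to 94.0 (median 91.2). The Elf1 region at its outermost start (chr14:79480600-79482270) also held a start of the neighbouring gene Wbp4 and ranked at 73.3 to 94.3 (median 82.9). The Ets2 promoter (chr16:95701649-95703093, highest summit in the untranslated part of exon 1) ranked at 59.9 to 87.8 (median 78.7). These 5 were called in all 12 reduced lists. The Fli1 start (chr9:32541391-32541970) was called in only 4 of the 12 reduced lists, Young Mlkl-/- 2, Aged WT 1, Aged Mlkl-/- 1 and Aged Mlkl-/- 3, at percentiles of 64.9, 65.6, 66.4 and 64.3. In the full lists it was called in 5. A further region over inner Elf1 starts (Elf1 +34.4 kb, chr14:79515342-79515897, Elf1-202 to Elf1-204) was called in 10 reduced lists, at 69.2 to 93.7.

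Erg had a called region over its inner starts and none over its outer coding starts. The region over the starts of Erg-202, Erg-203, Erg-205 and Erg-207 (Erg +127.1 kb, chr16:95459214-95459768) was called in all 12 reduced lists at percentiles of 69.3 to 89.5 (median 80.2). In young cells it ranked at 80.1, 81.8 and 80.9 for WT and at 81.2, 74.2 and 73.3 for Mlkl-/-. In aged cells it ranked at 89.5, 69.3 and 76.9 for WT and at 75.7, 80.3 and 85.3 for Mlkl-/-. The young and aged libraries overlapped fully, and the difference between them was small, with a change with age of 0.05 ± 0.15 (SE) on the normal-score scale. No region held the starts of Erg-201, Erg-204, Erg-206 or Erg-208, although Erg +0.9 kb (chr16:95585299-95586061), near the outermost start, was called in 10 of 12 full lists and in 3 reduced lists.

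Downstream of the inner start, Erg +133.9 kb (chr16:95452367-95452915) ranked highest among the Erg regions, at 80.9 to 95.0 (median 91.5). Erg +147.2 kb (chr16:95439085-95439631) was also called in every library. Its young percentiles were 92.6, 82.8 and 90.7 for WT and 92.4, 92.0 and 73.4 for Mlkl-/-. Its aged percentiles were 74.2, 76.3 and 70.9 for WT and 79.5, 77.9 and 81.2 for Mlkl-/-. All Aged WT libraries lay below all Young WT libraries, and the only young library among the aged values was Young Mlkl-/- 3. The change with age over both genotypes was -0.46 ± 0.15 (adjusted p = 0.0771, limma with Benjamini-Hochberg adjustment over all 37886 regions), which did not pass the threshold of 0.01 used for all calls here.

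Erg +149.8 kb (chr16:95436549-95437098), an intronic region between Erg +147.2 kb and Erg +151.9 kb, was singled out after its values were seen. Its scores in the full lists were 12.7, 4.49 and 6.33 in Aged WT and 4.32, 6.18 and 6.51 in Aged Mlkl-/-, and it was not called in any of the 6 young libraries. Among all 71006 regions, 597 (0.841%) were called in all 6 aged and in 0 young full lists, and 39 (0.0549%) in all 6 young and in 0 aged ones. In the lists of equal length it was called in 2 aged libraries, Aged WT 1 and Aged Mlkl-/- 2, so it did not enter the main test. Ranked in the full lists, its change with age was 0.78 ± 0.23 (adjusted p = 0.0308, limma). This p-value is no test of the difference, because the region was picked for its calls in the same lists. With lists of equal length and every region called in at least 1 list, the change was 0.31 ± 0.21 (adjusted p = 0.464, limma), a fit that differs from the former in list length and in the minimum number of lists. Its neighbour Erg +151.9 kb had the opposite order, with calls in 4 young reduced lists and in 1 aged list.

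**Figure D2:**
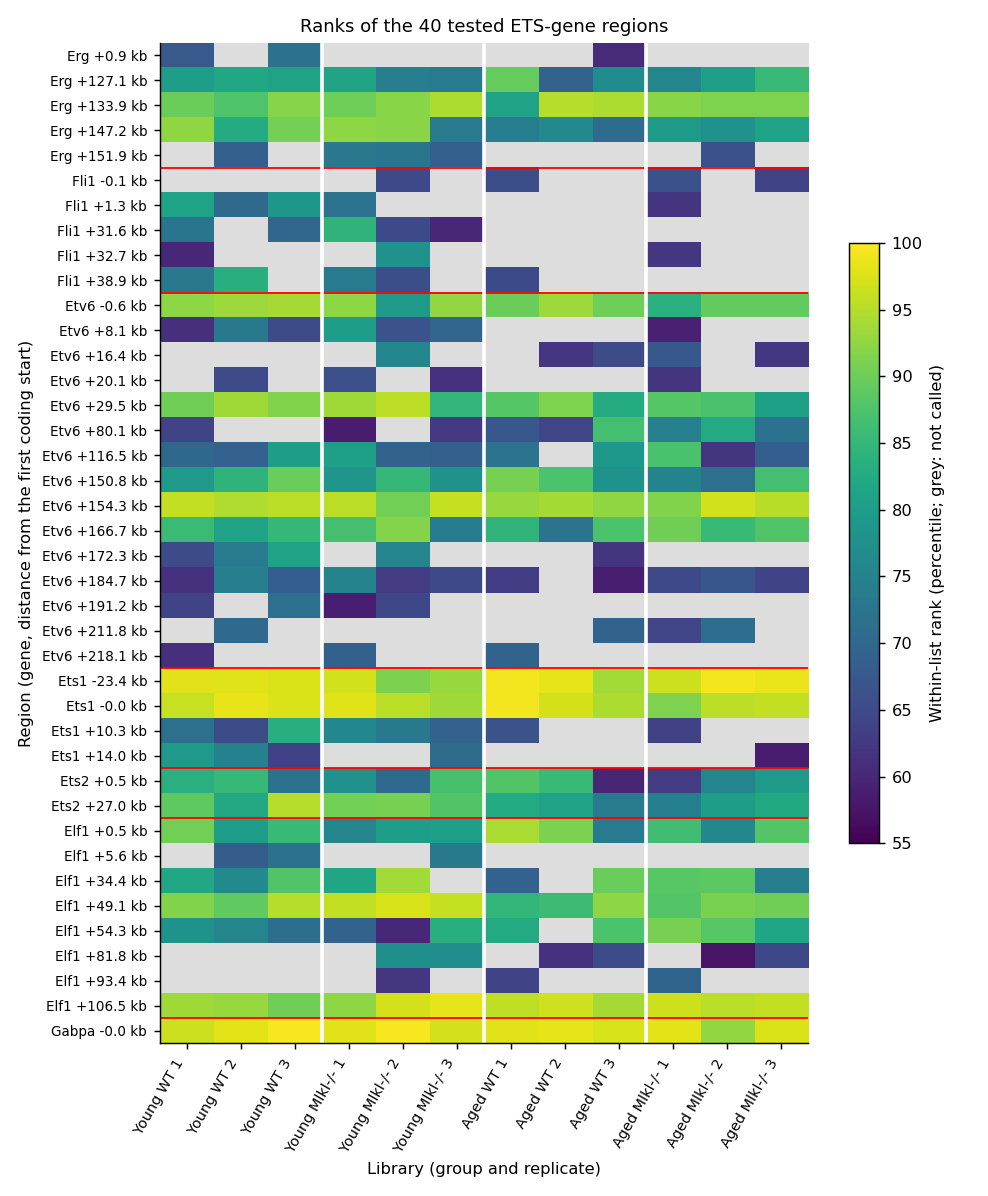
Within-list percentile (color) of the 40 tested ETS-gene regions (rows, ordered along each gene, named by distance in kb from the outermost coding start) in the 12 libraries (columns), with regions not called in a reduced list in grey. Ets1 -23.4 kb, the Ets1 and Gabpa promoters and Etv6 +154.3 kb lay at 90.4 or above in all libraries, and the Fli1 rows were grey in most of them.

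Among the other distal regions, Ets1 -23.4 kb (chr9:32672089-32673039) ranked beside the Ets1 promoter, at 91.2 to 99.2 (median 97.6). It lay upstream of the coding starts, inside retained-intron transcripts of Ets1. Its young scores were 40.7, 40.6 and 35.9 for WT and 38.4, 28.5 and 21.3 for Mlkl-/-. Its aged scores were 58.0, 48.1 and 30.2 for WT and 41.5, 46.7 and 61.3 for Mlkl-/-. The change with age was 0.30 ± 0.15 (adjusted p = 0.247, limma), and its age groups overlapped over both genotypes. It was 0.016 ± 0.21 in WT and 0.57 ± 0.21 in Mlkl-/- (adjusted p = 0.186, limma). All aged scores of Mlkl-/- lay above the young ones, while its ranks overlapped. The difference between these changes was 0.56 ± 0.30 (adjusted p = 0.965, limma). Elf1 +106.5 kb ranked at 90.2 to 98.4, but it lay downstream of Elf1 and held a start of Sugt1. Etv6 had the most regions called in all 12 reduced lists (5), namely its promoter, Etv6 +29.5 kb (80.7 to 95.5), Etv6 +150.8 kb (71.6 to 90.8), Etv6 +154.3 kb (90.4 to 96.9) and Etv6 +166.7 kb (72.3 to 91.7). Fli1 had 18 regions, and its 5 tested ones were each called in only 3 to 5 reduced lists.

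Between young and aged HSCs, taken over both genotypes, none of the 40 tested ETS-gene regions passed an adjusted p of 0.01, while 1029 of all 37886 regions did (2.72%), of which 650 were higher and 379 lower in aged cells. At an unadjusted p under 0.05 there were 15 ETS-gene regions, 14 lower and 1 higher in aged cells, against 22.1% of all regions, of which 4067 (10.7%) were lower and 4316 (11.4%) higher. At an adjusted p under 0.05 there were 4, all lower in aged cells (against 3.34% of all regions lower and 7.75% in either direction). The median change over the 40 was -0.15 on the normal-score scale, against -0.00725 over all regions, and 27 of the 40 (67.5%) were below 0, against 50.9% of all. The 40 regions are not independent, since they lie in 7 genes. Among the 16 ETS-gene regions called in all 12 reduced lists, 10 were below 0 (62.5%, against 53.8% of all such regions), with a median of -0.07 (against -0.018). Among the 24 called less often 17 were below 0 (70.8%, against 10947 of all 22352 such regions), with a median of -0.25 (against 0.015). Leaving out 1 library left 3 regions under the adjusted p of 0.05 without Young WT 2 or Young Mlkl-/- 3, and 1 or 2 without any other. List length moved with age, and with it as a covariate 0 of the 40 regions were under the adjusted p of 0.05 (against 2.04% of all) and 14 under the unadjusted one (against 16.6%), 12 of them lower (against 8.60%). With the presence of Y-gene summits as a covariate 1 was under the adjusted p (against 4.17%) and 9 under the unadjusted one (against 19.6%), 8 of them lower (against 9.19%). With the replicate number as a block 3 were under the adjusted p of 0.05, all lower (against 6.46% in either direction).

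**Figure D3:**
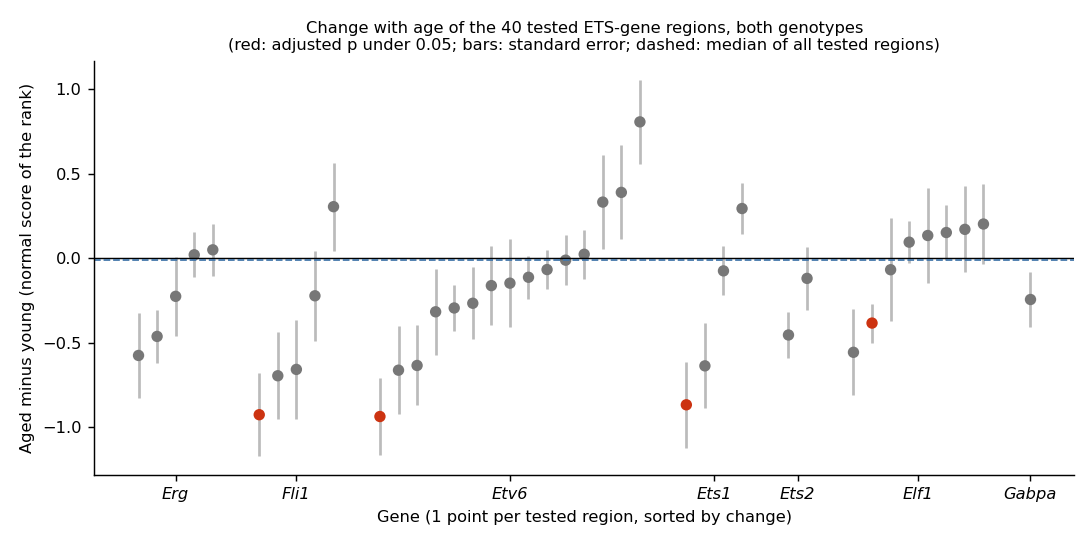
Change with age over both genotypes (aged minus young, normal score of the within-list rank, vertical axis) of the 40 tested ETS-gene regions, grouped by gene and sorted within it, with standard errors as bars, red points for an adjusted p under 0.05 and a dashed line at the median of all tested regions. Fli1, Etv6, Ets1 and Elf1 each held 1 red point, all below 0, and the highest point was Etv6 +80.1 kb at 0.81.

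Etv6 +8.1 kb (chr6:134043482-134044045) had the lowest p among the ETS-gene regions. It was called in all 6 young reduced lists, at percentiles of 61.2, 73.2 and 65.4 in Young WT and 80.3, 66.4 and 69.7 in Young Mlkl-/-. Among the aged libraries it was called only in Aged Mlkl-/- 1, at 59.1. All aged libraries thus lay below all young ones, a separation that 3.88% of all tested regions showed in either direction and 1.75% in this one. These shares can hold regions without a call in Young Mlkl-/- 3, whose normal score for no call lay above those of all aged libraries. The change with age was -0.94 ± 0.23 (adjusted p = 0.0169, limma), and the adjusted p ran from 0.0115 to 0.123 over the alternatives tried. In the full lists its young scores were 6.38, 9.77 and 5.65 for WT and 14.7, 10.6 and 6.05 for Mlkl-/-. Its aged scores were 5.20 in the WT library 1, with no call in 2 and 3, and 8.33, 3.96 and 8.30 for Mlkl-/-. Scores of the age groups overlapped there, and the 8.30 in Aged Mlkl-/- 3 lay below the lowest score kept in its reduced list (9.02).

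Etv6 +80.1 kb (chr6:134115297-134116068) went the other way, and its scores did not overlap between the ages in the full lists. The share of all regions with such a separation of full-list scores was not computed. Etv6 +80.1 kb was not picked by the rule for named regions and is given because of its separation. Its young scores were 6.92, 4.17 and 3.30 for WT and 6.15, 5.0 and 4.12 for Mlkl-/-. Its aged scores were 10.1, 7.86 and 20.8 for WT and 14.0, 15.1 and 14.5 for Mlkl-/-. Reduced lists called it in 3 young and all 6 aged libraries, and the lowest aged percentile (64.5) lay just above the highest young (64.2), a separation in this direction that 2.13% of all tested regions showed. The change with age was 0.81 ± 0.25 (adjusted p = 0.0553, limma), with 0.88 ± 0.35 in WT and 0.74 ± 0.35 in Mlkl-/-. Leaving out any library gave changes between 0.67 and 0.96. In lists of unequal length the change was 0.52 (adjusted p = 0.0848, limma). The adjusted p ran from 0.0239 to 0.273 over the alternatives and was under 0.05 in 3 of 27.

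Fli1 +31.6 kb (chr9:32509580-32510234) had calls in 5 young reduced lists and in 0 aged ones. Its scores in the full lists were 9.60, 4.51 and 6.95 in Young WT and 17.7, 10.0 and 3.03 in Young Mlkl-/-, against 4.60 and 5.73 in the Aged WT libraries 2 and 3 and 8.58 in Aged Mlkl-/- 3, with no call in the other aged libraries. The highest values were thus young, although the scores overlapped. In Young Mlkl-/- 3 the score of 3.03 counted as called in the reduced list (lowest score kept 3.01). In Aged Mlkl-/- 3 the score of 8.58 did not (lowest score kept 9.02). The change was -0.93 ± 0.24 (adjusted p = 0.0258, limma), with an adjusted p from 0.0107 to 0.215 over the alternatives. At Fli1 as a whole, 4 of the 5 tested regions were lower in aged cells, and the exception was the region at the start, which was called in 1 young and 3 aged reduced lists.

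Ets1 +10.3 kb (chr9:32705680-32706561) was called in all 6 young reduced lists, at percentiles of 65.5 to 83.2, and in 2 aged ones, Aged WT 1 at 66.5 and Aged Mlkl-/- 1 at 63.7. The full lists called it in every library, with overlapping scores of 5.90 to 13.3 in young and 4.84 to 9.76 in aged ones. The change was -0.87 ± 0.25 (adjusted p = 0.0423, limma), with -0.54 in lists of unequal length and an adjusted p from 0.0248 to 0.197 over the alternatives, under 0.05 in 10 of 27. Elf1 +49.1 kb (chr14:79530055-79530880) was called in every library, at young percentiles of 91.5, 89.0 and 94.9 for WT and 95.8, 97.2 and 96.1 for Mlkl-/-. Its aged percentiles were 84.9, 85.8 and 92.3 for WT and 88.0, 90.9 and 90.2 for Mlkl-/-. Within Mlkl-/- the aged libraries lay below all young ones, and within WT they overlapped. The change over both genotypes was -0.38 ± 0.12 (adjusted p = 0.0490, limma), with an adjusted p from 0.0300 to 0.211 over the alternatives, under 0.05 in 6 of 27. The distal Ets2 +27.0 kb region (chr16:95728745-95729336), downstream of the gene, ranked at 82.2 to 95.0 in young and at 73.3 to 82.5 in aged libraries, so that the highest aged library just overlapped the lowest young one. Its change was -0.45 ± 0.14 (adjusted p = 0.0517, limma). The Ets2 and Gabpa promoters differed by -0.12 ± 0.19 and -0.24 ± 0.16 between the ages. The plot of summit scores for selected regions shows these values by library.

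**Figure D4:**
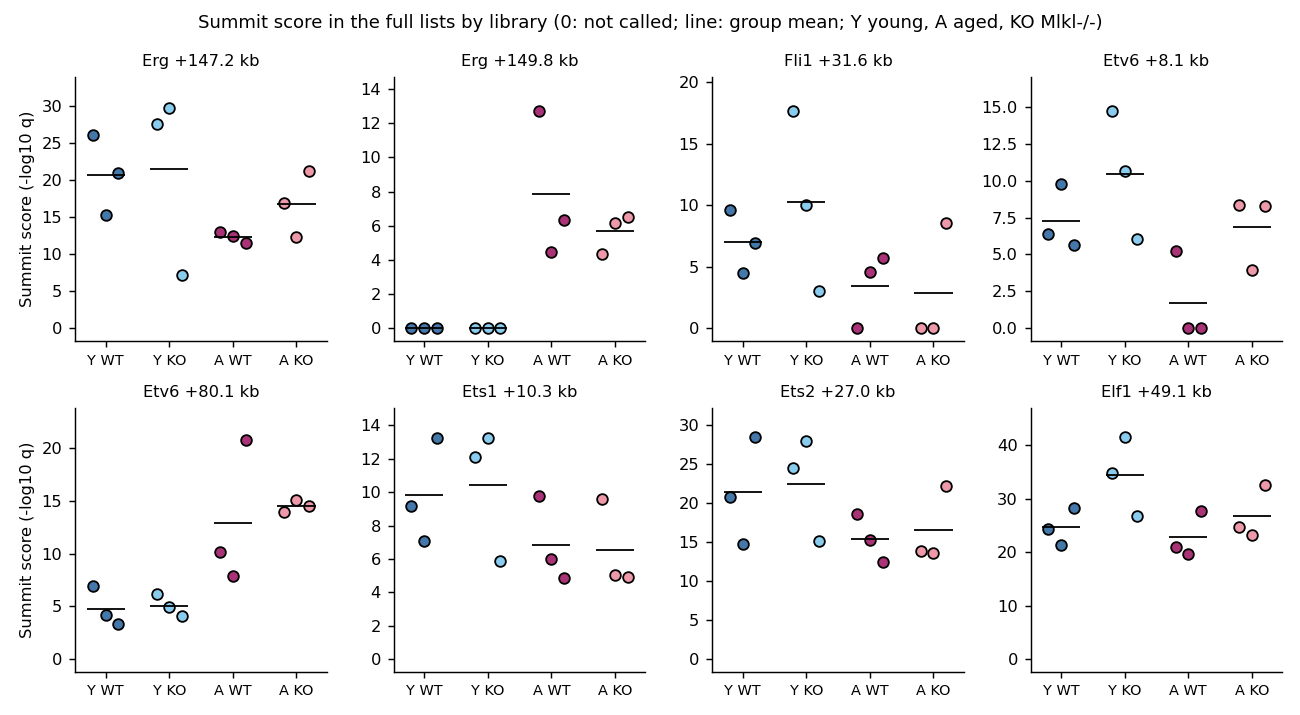
Summit score (−log10 q, vertical axis) of 8 ETS-gene regions in the full lists by library, for the 4 groups of 3 libraries (Y young, A aged, KO Mlkl-/-), with 0 for no call and a line at the group mean. Erg +149.8 kb was called only in the 6 aged libraries, Etv6 +80.1 kb lay higher in all 6 aged than in all 6 young libraries, and the other 6 panels overlap between the ages.

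Within each genotype, no ETS-gene region passed an adjusted p of 0.01 (0 of 40 in either), against 76 of all regions in WT (0.201%) and 57 in Mlkl-/- (0.150%). In WT, 9 of the 40 regions had an unadjusted p under 0.05, 8 of them lower in aged cells, against 14.6% of all regions in either direction and 7.45% lower. In Mlkl-/- 7 did, 6 of them lower, against 14.4% of all in either direction and 6.37% lower. Groups of 3 that did not overlap in normal score were found for 8 of the 40 regions in WT, 6 of them lower with age, and for 10 in Mlkl-/-, 9 of them lower, against 19.2% of all regions in each genotype. The normal score for no call differed by library, so a library without a call could lie above others without one. In Mlkl-/- this set Young Mlkl-/- 3 above the aged libraries at Etv6 +172.3 kb, Etv6 +191.2 kb and Fli1 +38.9 kb, where none of these had a call. The separation of these regions is therefore not one of calls, and the shares over all regions can hold such cases too. Regions separated with the aged libraries lower made up 9.24% of all regions in WT and 10.5% in Mlkl-/-. The lowest p in WT was at Fli1 +1.3 kb, with a change of -1.29 ± 0.36 (adjusted p = 0.0715, limma). It ranked at 81.0, 70.6 and 78.9 in Young WT and was not called in the reduced Aged WT lists. The full lists called it in Aged WT 1 and 3, at scores of 5.82 and 7.13, against 14.1, 8.81 and 10.5 in Young WT. In Mlkl-/- its change was -0.10 ± 0.36. The difference between these changes was 1.19 ± 0.51 (adjusted p = 0.965, limma).

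Between the genotypes, no ETS-gene region passed an adjusted p of 0.01 over both ages, at 3 months or at 18 months, and neither did any other of the 37886 regions (0%). Unadjusted p-values under 0.05 were found for 2 of the 40 over both ages (against 6.22% of all), for 7 at 3 months (against 5.37%) and for 0 at 18 months (against 5.10%). Over both ages these were Erg +0.9 kb, with a difference (Mlkl-/- minus WT) of -0.50 ± 0.23, and Erg +151.9 kb, with 0.54 ± 0.25 (adjusted p = 0.764 for both, limma). In the reduced lists, Erg +0.9 kb was called in Young WT 1 and 3, at percentiles of 67.6 and 71.9, and in Aged WT 3 at 60.4, and in no reduced Mlkl-/- list. Erg +151.9 kb was called there in all 3 Young Mlkl-/- libraries, in Aged Mlkl-/- 2 and in Young WT 2. At 3 months, the difference was -0.91 ± 0.36 at Fli1 +1.3 kb and 0.39 ± 0.16 at Elf1 +49.1 kb (adjusted p = 0.867 for both, limma). The interaction of age and genotype passed for no region of the 37886, and 1 of the 40 had an unadjusted p under 0.05, against 4.80% of all.

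Averaged over its tested regions, each gene gave a gene-level normal score, and 5 of the 7 genes had the 3 tested regions that this test needed. Gabpa stood highest with a mean of 2.06 from 1 region, followed by Ets1 (0.96), Ets2 (0.91), Elf1 (0.62), Erg (0.55), Etv6 (0.41) and Fli1 (-0.15). Ets1 and Ets2 overlapped in every group but Young WT, where Ets1 stood at 1.31 ± 0.0021 (SD, n = 3) and Ets2 at 1.06 ± 0.069. Neighbours in this order overlapped over the 12 libraries, except that the lowest Gabpa library (1.45) lay above the highest Ets1 library (1.31). Fli1 lay lowest, at 0.09 ± 0.23 and 0.04 ± 0.36 in young WT and Mlkl-/- cells and at -0.42 ± 0.22 and -0.32 ± 0.28 in aged ones.

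None of the 5 ETS genes passed an adjusted p of 0.01 between the ages, against 239 of 7282 genes (3.28%). The 6 young libraries had Erg values of 0.70, 0.59 and 0.72 for WT and 0.73, 0.70 and 0.56 for Mlkl-/-, and the aged ones 0.34, 0.36 and 0.51 for WT and 0.36, 0.57 and 0.44 for Mlkl-/-. The highest aged value, in Aged Mlkl-/- 2, just exceeded the lowest young value. The Erg change was -0.24 ± 0.093 (adjusted p = 0.105, limma). It was negative under all 27 alternatives, but it was only -0.038 in lists of unequal length, -0.079 with a minimum of 1 list and -0.13 with a minimum of 6, and the adjusted p ran from 0.0753 to 0.824. Young Ets1 values were 1.31, 1.31 and 1.31 for WT and 1.01, 0.77 and 1.02 for Mlkl-/-, and aged ones were 1.17, 0.74 and 0.50 for WT and 0.74, 0.74 and 0.90 for Mlkl-/-. Its change was -0.32 ± 0.10 (adjusted p = 0.0487, limma) and was the only one under 0.05, against 10.3% of all genes, and the adjusted p ran from 0.0118 to 0.715 over the alternatives, with a change of -0.059 when a flank of 50 kb was used. The difference between the ages was -0.44 ± 0.15 at Fli1 (adjusted p = 0.0628), with -0.10 in lists of unequal length, and -0.14 ± 0.098 at Etv6 (adjusted p = 0.396), by limma. At Elf1 it was -0.031 ± 0.10 (adjusted p = 0.881, limma), and its sign turned under 4 of 27 alternatives. Between the genotypes, 0 of the 5 genes and 0 of 7282 passed, and the interaction gave 0 as well. For Ets1 the difference (Mlkl-/- minus WT) was -0.37 ± 0.15 at 3 months (adjusted p = 0.818, limma) and -0.0097 ± 0.15 at 18 months.

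The 19 other genes of the ETS family held 80 regions, of which 48 were tested, and 0 passed an adjusted p of 0.01 with age (against 2.72% of all regions). Their median change was -0.03, and 25 of the 48 were below 0 (52.1%, against 50.9% of all). A single region had an adjusted p under 0.05 (against 7.75% of all regions). It lay 5.54 kb from a start of Elk4, whose protein works with serum response factor, and was higher in aged cells (0.49 ± 0.14, adjusted p = 0.0341, limma). Of 7 genes for partners of ETS factors (Runx1, Gata2, Tal1, Lyl1, Lmo2, Gabpb1 and Gabpb2), 26 of 41 regions were tested. With age, 2 of the 26 passed an adjusted p of 0.01 (against 2.72% of all regions). An intronic Runx1 region (chr16:92644536-92645160) was called in no young and in all 6 aged reduced lists and rose with age, by 1.23 ± 0.21 (adjusted p = 0.00176, limma). An intronic Gabpb1 region (chr2:126673148-126673776), in the gene of the partner subunit of Gabpa, was called in all 6 young and in no aged reduced list, a change of -1.04 ± 0.21 (adjusted p = 0.00454, limma). No values under the alternatives are given for these 2 regions. The median change of the partner regions was -0.11. No region of either list passed between the genotypes.

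The genes whose gene-level values were most like the mean of the 7 ETS genes over the 12 libraries, among 1737 genes with at least 5 tested regions that shared none with a member, were Sbno2 (Pearson r = 0.944), 3110082I17Rik (0.932), Rnf220 (0.927), Stk10 (0.902) and Lrrc25 (0.891). For Erg alone they were Klhl18 (0.905), Itsn1 (0.901) and Sema4d (0.899). These are descriptions over 12 libraries that share their list lengths and group structure.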

How the data were processed

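ATAC-seq libraries of sorted HSCs from 4 groups of 3 libraries were analysed. Per the methods, the authors aligned reads to mm10 with Bowtie2 2.5.3 and called peaks in each library with MACS2 2.2.7.1 without a shifting model; bedtools 2.31.0 and edgeR 3.30.3 are named in the submitters' processing notes. The deposited values were summit positions with the authors' −log10 q-value, which reached down to about 2 in each library, so summits with a score of at least 3 (q of 0.001, the stated cutoff) were kept. Whether insertion sites were shifted for the transposase is not given in the sources used here. The lists hold no counts, so read depth is unknown, no confidence interval for counting error was computed, and a score depends on depth as well as on accessibility. Replicates were separate libraries of pooled mice, so p-values measure the spread between such libraries, and no pair shared a summit of equal score.

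Windows of 250 bp on each side of all summits on chromosomes 1 to 19, X and Y were merged into 71006 regions. Lists were reduced to the 35714 summits of highest score, with ties broken at random with a fixed seed. Normal scores of 37886 regions called in at least 3 lists, and their means for 7282 genes with at least 3 such regions, were fitted with limma 3.58.1 in R 4.3.3 (group means, trended empirical Bayes) for 7 contrasts, with Benjamini-Hochberg adjustment over all regions or genes and a threshold of 0.01. Genes came from GENCODE and sequences from RefSeq GRCm38.p6, both of the files' build, read with pysam 0.24.0. The limma fit was tested on simulated normal scores with known shifts. Their noise was independent between regions and held no tied values for regions without a call.

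The 7 genes, the other gene lists and the tests were chosen with earlier results of these data known. Named regions were those holding a start of the gene and called in at least 3 lists, up to 3 further regions per gene with the highest mean normal score, any with an adjusted p under 0.01, and those with the lowest p for age and for genotype. Erg +149.8 kb, Etv6 +80.1 kb, Etv6 +150.8 kb and the regions of Elk4, Runx1 and Gabpb1 were named after their values were seen. Alternatives were other score minimums, list lengths, windows, flanks, scales, list minimums, covariates, a replicate block and leaving out each library.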

Additional observations from a re-analysis of the deposited data

Results flagged for a closer look

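Summits with a score under 3 were used in no main comparison, and only in the alternative that took all deposited summits. The intervals of the 7 ETS genes held 25 of them over the 12 libraries, and 7 lay outside all regions, 3 of them young WT, 1 aged WT, 3 aged Mlkl-/- and 0 young Mlkl-/-. They were flagged because a signal was present in data that no main comparison used.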

How the results depend on the processing

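No ETS-gene region passed an adjusted p of 0.01 in any of the 7 contrasts by limma, and this count stayed at 0 under 28 or 29 alternatives per contrast, including each library left out, except for age over both genotypes with a flank of 50 kb (1 region, beyond Ets1). A threshold of 0.05 gave 4 regions and 1 gene (Ets1) for that contrast. The gene-level age change of Elf1 reversed to 0.0776 in lists of unequal length, 0.0228 with a minimum of 6 lists, 0.0127 without Young Mlkl-/- replicate 2 and 0.0255 without Aged WT replicate 2 (-0.0907 to 0.0255 over the libraries left out). The genotype change of the Gabpa promoter, -0.11 over both ages, reversed to 0.0136 without Young WT replicate 3 (-0.21 to 0.0136 over the libraries left out). The cause was not tested. The median number of ETS-gene regions called per library was 42 in full lists and 30 in lists of equal length.

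With the replicate number as a block, 0 ETS-gene regions passed an adjusted p of 0.01 and 513 regions of all were higher and 260 lower with age at that threshold. At 0.05 there were 3 ETS-gene regions and 2447 regions of all. The deviations of libraries with the same number correlated between -0.30 and 0.13 (median -0.0068, 18 pairs). Those of other pairs correlated between -0.18 and 0.31 (median 0.0038, 36 pairs). No shared deviation by number was seen, and shared handling was not tested.

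Over all regions, the age calls fell from 650 higher and 379 lower to 49 and 11 with list length as a covariate, to 272 and 58 with Y-gene summits as a covariate, and to 11 and 2 in the 9 libraries whose file names share a tag. Without depth or counts, a region not called cannot be told apart from one that was closed.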

Other observations

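A region outside the 10 kb flanks was higher in aged cells. It lay 31.7 kb beyond the end of Ets1 (chr9:32789218-32789827), had calls in 1 young and all 6 aged reduced lists, and had a change with age of 1.16 ± 0.22 (adjusted p = 0.00368, limma). The nearest annotated start was that of Gm3331, at 24.2 kb. It was named after its values were seen.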
